A study of Homo sapiens with 3 samples.

Results

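The genes described here are 8 genes of fatty acid synthesis and desaturation, taken by name from textbook knowledge of the pathway: SREBF1, ACLY, ACACA, FASN, SCD, ELOVL6, FADS1 and FADS2. All 8 were found among the 44591 genes of the deposited table, and all 8 passed the filter of 1 RPKM or more on average over the 3 libraries, as did 12403 genes in all. RPKM are reads divided by gene length and library size. The rule uses names and no measured value, though the list was drawn up with earlier results of these data known.

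The study examined the role of RBCK1 (also called HOIL-1), a subunit of the linear ubiquitin chain assembly complex, in renal cancer. It proposes that RBCK1 lowers p53 through ubiquitination. RNA sequencing of cells depleted of RBCK1 was part of that work, beside growth, binding and protein stability experiments. Caki-1, an established human renal carcinoma line, was transfected with a control siRNA (si-Control), with si-RBCK1 #1 or with si-RBCK1 #2, labelled si-HOIL-1#1 and si-HOIL-1#2 in the sample records. RNA was taken 48 h after transfection, and the general transfection paragraph of the methods gives 10 nmol/L of siRNA. Each condition had 1 library, so no difference has a replicate check, no p-value was computed, and every interval below is a 95% exact Clopper-Pearson interval that covers counting error only.

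Cells build saturated fatty acids in the cytosol from citrate. ATP citrate lyase (ACLY) cuts citrate into acetyl-CoA, acetyl-CoA carboxylase (ACACA) turns acetyl-CoA into malonyl-CoA, and fatty acid synthase (FASN) joins these units into palmitate. ELOVL6 lengthens palmitate to stearate, SCD places a double bond into the saturated chain, and FADS1 and FADS2 desaturate the polyunsaturated chains. SREBF1 codes for SREBP1, a membrane-bound transcription factor that is cut free by proteases in the Golgi and switches on many of these enzymes. Clear cell renal carcinoma, the tumour class to which Caki-1 is usually assigned, is known for its stores of neutral lipid and cholesterol.

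The siRNAs are shown because they define the conditions. Their sense strands are given 5′ to 3′, as listed in the study's oligonucleotide table, with capitals at bases 12 to 18, the bases that equal a target site for guide positions 2 to 8 (the seed).
si-RBCK1 #1: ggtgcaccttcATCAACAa
si-RBCK1 #2: ggattaccagcGATTTCTa
The 7 capital letters of si-RBCK1 #1 occurred once in the longest protein-coding transcript of SREBF1 and of ACACA and at 2 places in that of FADS1, and in 0 places for the other 5 genes. Those of si-RBCK1 #2 occurred at 2 places for SCD and 1 place for FADS1, and in 0 places for the other 6 genes. Of 10553 protein-coding genes searched the same way, 23.8% held the letters of si-RBCK1 #1 and 29.2% those of si-RBCK1 #2. ACLY, FASN, FADS2 and ELOVL6 held neither, and of these ELOVL6 was lower with both siRNAs and the others higher. A match of letters is a description and not a site of action.

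RBCK1 itself was measured first, as a check of the labels. Its level was 33.3 RPKM in si-Control, 9.97 RPKM in si-RBCK1 #1 and 12.3 RPKM in si-RBCK1 #2. Reads scaled by the library totals alone (library-scaled reads) were 0.299 times those of si-Control with si-RBCK1 #1 (0.283 to 0.316) and 0.368 times with si-RBCK1 #2 (0.349 to 0.388). Both siRNA libraries were therefore low in the targeted transcript, as their labels say. The library sizes used for scaling were 36926834 reads (si-Control), 40442939 (si-RBCK1 #1) and 36344428 (si-RBCK1 #2). Of 11 renal and carcinoma markers 6 passed the filter, among them PAX8 at 124, 82.5 and 107 RPKM in si-Control, si-RBCK1 #1 and si-RBCK1 #2, while CA9 and PAX2 were near 0. The summed level of the renal list was 973 RPKM in si-Control, 1933 in si-RBCK1 #1 and 1940 in si-RBCK1 #2, and most of that difference lay in VIM (664, 1512 and 1392 RPKM). The part of that shift in the results below was not tested. Of 5 adipocyte markers 0 passed, and ADIPOQ and LEP were at 0 in all 3 libraries. Of 5 hepatocyte, 6 fibroblast, 4 endothelial and 5 leukocyte markers, SERPINA1 (7.29 RPKM in si-Control) and COL1A1 (4.68 RPKM) passed. In bulk RNA, fewer cells of a kind and less RNA per cell cannot be told apart.

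In si-Control the 8 genes spanned 2.90 to 76.9 RPKM, a per-length scale on which genes may be set side by side. ACLY was the highest, followed by FASN (27.7 RPKM), FADS1 (25.3), SCD (17.6), SREBF1 (12.6), ACACA (10.5), ELOVL6 (4.04) and FADS2 (2.90). The counting intervals of all neighbours in that order lay apart. ACLY stood above 93.8% of the genes tested and FADS2 above 21.8%. In si-RBCK1 #1 the order became ACLY, FASN, SCD, FADS1, SREBF1, ACACA, FADS2 and ELOVL6, again with all intervals apart. The order in si-RBCK1 #2 differed from that of si-Control at the low end alone, where FADS2 (5.96 RPKM) stood above ELOVL6 (1.93 RPKM). The 8 levels summed to 177 RPKM in si-Control, 346 in si-RBCK1 #1 and 330 in si-RBCK1 #2, and ACLY and FASN held most of that sum.

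**Figure D1:**
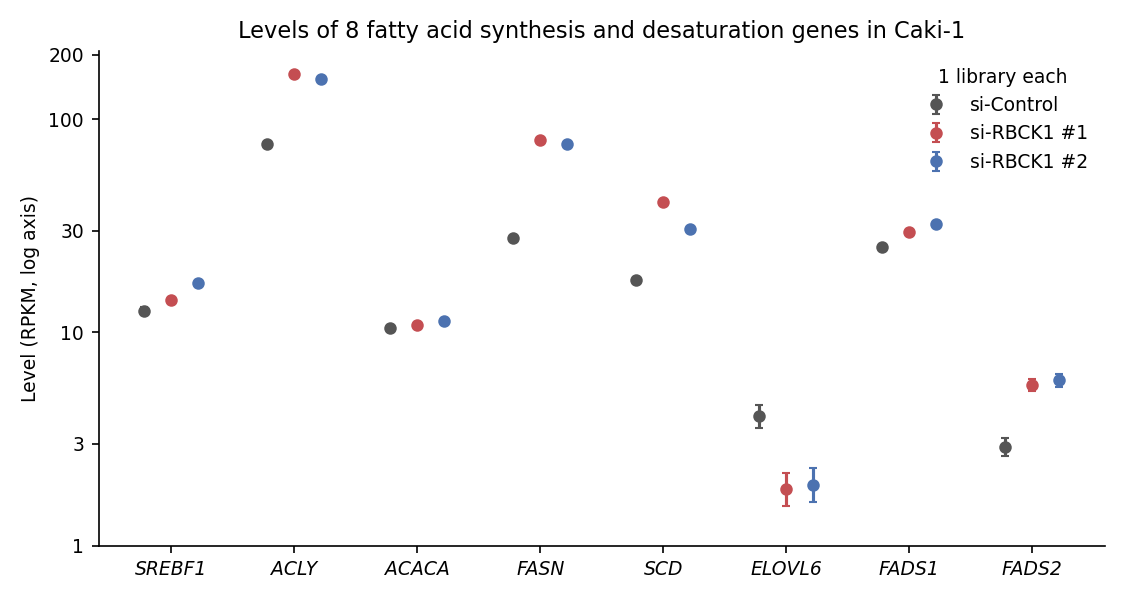
Level of each of the 8 genes in RPKM (log axis) in the si-Control, si-RBCK1 #1 and si-RBCK1 #2 libraries, 1 library each, with 95% counting intervals that are often smaller than the points. ACLY, FASN, SCD and FADS2 were higher in both si-RBCK1 libraries than in si-Control, and ELOVL6 was lower in both, at 1.84 and 1.93 RPKM against 4.04.

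In both siRNA libraries 7 of the 8 genes were higher than in si-Control and 1, ELOVL6, was lower, except that with libraries scaled to equal totals ACACA was at -0.0068 on the log2 scale for si-RBCK1 #1 and 6 were higher. Higher by any amount were 51.5% of all genes tested with si-RBCK1 #1 and 53.5% with si-RBCK1 #2. The median log2 ratio of the 8 genes, on the log2(RPKM + 1) scale that understates the change of low genes, was 0.49 with si-RBCK1 #1 and 0.58 with si-RBCK1 #2. Over all genes tested the medians were 0.02 and 0.03. At least 2-fold higher with si-RBCK1 #1 were ACLY, FASN and SCD, 3 of 8 genes, against 2.91% of all genes tested. With si-RBCK1 #2 it was FASN, 1 of 8, against 2.5% of all genes, and ACLY fell just short of the limit at 1.999-fold. With a pseudocount of 0.1 RPKM it was 3 of 8, since ACLY (log2 ratio 1.01) and FADS2 (1.01) then passed beside FASN, and the number of all genes at least 2-fold higher went from 310 to 563. None of the 8 genes was at least 2-fold lower on this scale, where 3.27% of all genes were with si-RBCK1 #1 and 2.27% with si-RBCK1 #2. The 1.5-fold limit called the same genes with either siRNA, namely ACLY, FASN, SCD and FADS2 as higher and ELOVL6 as lower. The share of all genes at least 1.5-fold higher was 12.1% with si-RBCK1 #1 and 11.3% with si-RBCK1 #2, and at least 1.5-fold lower were 11.6% and 9.32%. Both comparisons use the same si-Control library, so the values of the siRNAs are given side by side and are not independent of each other.

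**Figure D2:**
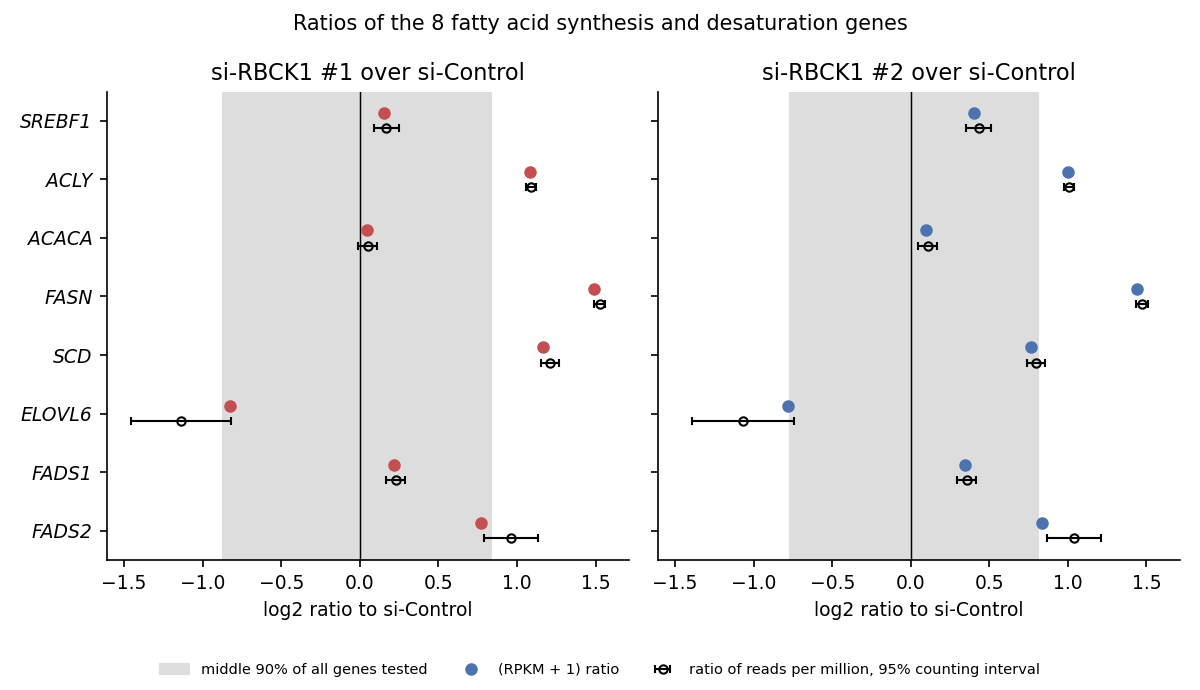
Log2 ratio of each gene to si-Control for si-RBCK1 #1 (left) and si-RBCK1 #2 (right), with filled points for (RPKM + 1) and open points for library-scaled reads with 95% counting intervals. Grey marks the span from the 5th to the 95th percentile of all genes tested on the (RPKM + 1) scale, so it applies to the filled points alone. The filled points of FASN and ACLY lie to the right of it with both siRNAs, that of SCD with si-RBCK1 #1 alone and that of FADS2 with si-RBCK1 #2 alone. The filled point of ELOVL6 lies to the left of it with si-RBCK1 #2 alone.

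SREBF1, the transcription factor of the list, was at 12.6 RPKM in si-Control, 14.1 in si-RBCK1 #1 and 17.0 in si-RBCK1 #2. The log2 ratios on the log2(RPKM + 1) scale were 0.16 and 0.40, smaller than those of ACLY, FASN and SCD with either siRNA. The 1.12-fold (1.06 to 1.19) and 1.35-fold (1.28 to 1.42) ratios of library-scaled reads exceeded counting error but not the 1.5-fold limit. The last 105 bases of SREBF1 (hg19, chr17:17714663-17740325, minus strand) overlap RAI1 on the plus strand. RAI1 was at 10.2, 6.93 and 11.1 RPKM, and the strand setting of the counting is not given in the sources used here. MIR33B, a microRNA inside SREBF1, was listed at 0 in all 3 libraries.

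ACLY makes the cytosolic acetyl-CoA from which the chain is built. Its level was 76.9 RPKM in si-Control, 164 in si-RBCK1 #1 and 155 in si-RBCK1 #2, so both siRNA libraries lay near 2 times the control. Library-scaled reads were 2.13-fold (2.08 to 2.17) and 2.01-fold (1.97 to 2.06) higher. Of the 12403 genes tested, 272 had a higher ratio than ACLY with si-RBCK1 #1 and 311 with si-RBCK1 #2. The gene lies at hg19 chr17:40023170-40075275 on the minus strand.

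ACACA catalyses the committed step of the pathway and stood apart from its neighbours ACLY and FASN. Its level was 10.5 RPKM in si-Control, 10.9 in si-RBCK1 #1 and 11.3 in si-RBCK1 #2. The ratio of library-scaled reads was 1.03-fold with si-RBCK1 #1, with an interval from 0.993 to 1.08 that holds no change, and 1.08-fold with si-RBCK1 #2 (1.03 to 1.12). The gene spans chr17:35441927-35766902 in hg19, and the 6 genes listed inside it, among them C17orf78, were each below 1 RPKM in every library. Its mitochondrial relative ACACB was at 0.126, 0.369 and 0.425 RPKM, under the filter.

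FASN had the largest log2 ratio of the 8 genes with both siRNAs. Its level was 27.7 RPKM in si-Control, 79.7 in si-RBCK1 #1 and 76.7 in si-RBCK1 #2, and the siRNA libraries were close to each other. Library-scaled reads were 2.88-fold (2.81 to 2.95) and 2.77-fold (2.71 to 2.84) higher, from 8642 reads in si-Control, 27253 in si-RBCK1 #1 and 23583 in si-RBCK1 #2. Of all genes tested, 81 had a higher ratio with si-RBCK1 #1 and 85 with si-RBCK1 #2. FASN lies at hg19 chr17:80036214-80056106, minus strand. Set against ACACA, whose product it consumes, FASN had 2.63 times the RPKM in si-Control, 7.33 times in si-RBCK1 #1 and 6.78 times in si-RBCK1 #2. This pair of genes was chosen after the values were seen.

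SCD, the main stearoyl-CoA desaturase, was the gene on which the siRNAs differed most. It was at 17.6 RPKM in si-Control, 40.7 in si-RBCK1 #1 and 30.5 in si-RBCK1 #2, so both libraries were higher but to unequal degrees. The ratios of library-scaled reads were 2.32-fold (2.23 to 2.41) and 1.74-fold (1.67 to 1.81). Between the siRNA libraries SCD was 1.33-fold higher (1.29 to 1.38) in si-RBCK1 #1. The gene lies at hg19 chr10:102106772-102124588 on the plus strand. Its close relative SCD5 was much lower, at 1.99, 1.64 and 2.16 RPKM.

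ELOVL6 went the other way. Its level was 4.04 RPKM in si-Control, 1.84 in si-RBCK1 #1 and 1.93 in si-RBCK1 #2, the lowest of the 8 genes in both siRNA libraries. The log2 ratios on the log2(RPKM + 1) scale were -0.83 and -0.78, with 708 of all genes tested lower with si-RBCK1 #1 and 591 with si-RBCK1 #2. The smallest whole reads that fit its levels were 253, 126 and 119, for a gene length of 1696 bases. The longest protein-coding transcript of ELOVL6 had 6454 bases, so the true reads may be a multiple and the intervals narrower. The recovered reads gave ratios of 0.455 (0.364 to 0.565) and 0.478 (0.381 to 0.597) without a pseudocount. On the reads alone ELOVL6 was thus more than 2-fold lower with both siRNAs, though the intervals reach past that limit. The gene lies at hg19 chr4:110970229-111119820, minus strand. SCD and ELOVL6, enzymes that act next to each other on palmitate and stearate, had an RPKM ratio of 4.35 in si-Control, 22.2 in si-RBCK1 #1 and 15.8 in si-RBCK1 #2, a pair also chosen after the values were seen.

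FADS1 and FADS2 lie head to head on chromosome 11 (hg19, chr11:61567097-61584529 on the minus strand and chr11:61583675-61634826 on the plus strand) and overlap by 855 bases. FADS1, the desaturase that makes arachidonic acid, was at 25.3 RPKM in si-Control, 29.6 in si-RBCK1 #1 and 32.3 in si-RBCK1 #2, or 1.17-fold (1.12 to 1.22) and 1.28-fold (1.23 to 1.33) higher in library-scaled reads. FADS2, which carries out the first step of polyunsaturated desaturation, was at 2.90, 5.66 and 5.96 RPKM, or 1.95-fold (1.73 to 2.19) and 2.05-fold (1.82 to 2.32) higher. FADS2 was therefore the lower of the pair in level and the higher in ratio, and its intervals lay above those of FADS1 with both siRNAs. The level of FADS2 over that of FADS1 was 0.115 in si-Control, 0.191 in si-RBCK1 #1 and 0.185 in si-RBCK1 #2. Reads in the shared bases could belong to either gene unless strand was used in counting, and that setting is not given.

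The other protein-coding genes of the FADS cluster differed in direction. FEN1, a flap endonuclease of DNA replication and repair, was at 21.8, 47.5 and 47.8 RPKM, log2 ratios of 1.09 and 1.09. TMEM258 was at 75.1, 94.3 and 88.0 RPKM (0.32 and 0.23). FADS3, which lies next to FADS2, was lower, at 56.2 RPKM in si-Control, 27.0 in si-RBCK1 #1 and 40.9 in si-RBCK1 #2 (-1.03 and -0.45). FADS3 stood above FADS1 and FADS2 in si-Control, and FADS1 and FADS3 were closer in level in both siRNA libraries.

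**Figure D3:**
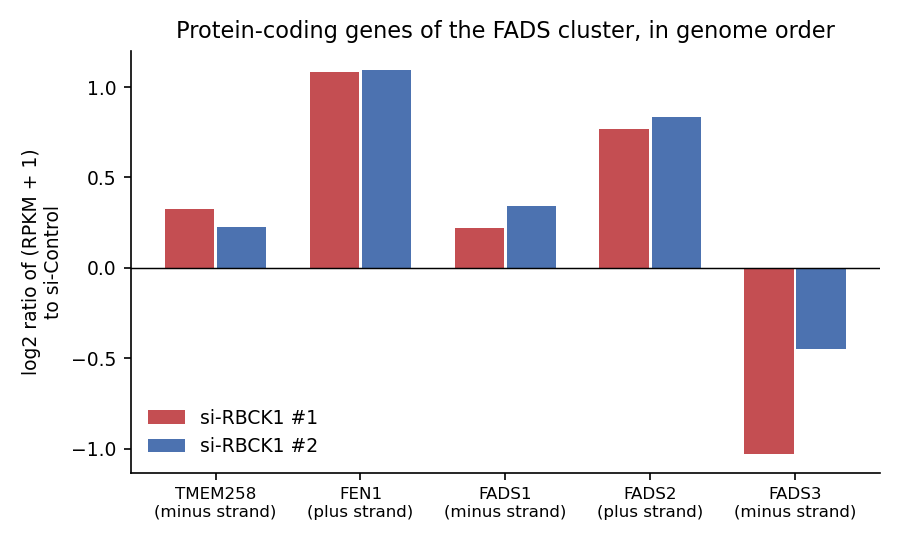
Log2 ratio of (RPKM + 1) to si-Control for the 5 protein-coding genes of the FADS cluster in genome order, with bars from 0 for si-RBCK1 #1 and si-RBCK1 #2 (1 library each, no error bars). FEN1 and FADS2 were higher with both siRNAs, FADS1 and TMEM258 slightly higher, and FADS3 lower.

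The siRNA libraries were also set directly against each other, without si-Control. On the log2(RPKM + 1) scale si-RBCK1 #1 over si-RBCK1 #2 was 0.40 for SCD, 0.08 for ACLY, 0.05 for FASN, -0.05 for ACACA, -0.05 for ELOVL6, -0.07 for FADS2, -0.12 for FADS1 and -0.25 for SREBF1. At the 1.5-fold limit 0 of the 8 genes differed, and 6.18% of all genes tested did. In library-scaled reads the intervals of ELOVL6 (0.735 to 1.23) and FADS2 (0.862 to 1.04) held no change, whereas SREBF1 was 0.834 times as high in si-RBCK1 #1 (0.792 to 0.877).

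The promoters of ACLY, SCD and ELOVL6 are printed because ACLY and SCD were higher and ELOVL6 lower in both siRNA libraries. They are the 250 bases before the RefSeq start (GRCh38.p14), and 7 of the 8 genes matched that table, all except FASN. Each is written 5′ to 3′ on the gene's strand, with capitals at CCAAT (or ATTGG, its reverse complement) and GGGCGG (or CCGCCC).
ACLY, second of its starts, chr17:41918952-41919201, minus strand: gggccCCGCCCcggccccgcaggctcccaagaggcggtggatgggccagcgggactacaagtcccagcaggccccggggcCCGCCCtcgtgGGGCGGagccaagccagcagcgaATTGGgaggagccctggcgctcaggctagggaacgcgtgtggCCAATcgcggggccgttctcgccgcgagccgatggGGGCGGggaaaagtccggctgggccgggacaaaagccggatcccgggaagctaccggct
SCD, chr10:100346983-100347232, plus strand: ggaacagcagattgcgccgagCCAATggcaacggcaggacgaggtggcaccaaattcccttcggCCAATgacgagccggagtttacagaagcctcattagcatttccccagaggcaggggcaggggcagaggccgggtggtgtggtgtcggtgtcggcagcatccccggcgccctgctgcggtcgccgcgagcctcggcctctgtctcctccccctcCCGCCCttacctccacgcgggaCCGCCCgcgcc
ELOVL6, chr4:110198616-110198865, minus strand: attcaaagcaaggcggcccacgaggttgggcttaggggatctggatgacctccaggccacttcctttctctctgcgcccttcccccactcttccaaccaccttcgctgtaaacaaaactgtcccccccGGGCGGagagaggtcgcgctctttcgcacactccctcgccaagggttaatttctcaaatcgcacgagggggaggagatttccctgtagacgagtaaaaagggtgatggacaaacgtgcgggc
CCAAT, the box bound by NF-Y, occurred at 2 places in the windows of ACLY and of SCD, 0 places in that of ELOVL6, and 0 places in those of SREBF1, FADS1 and FADS2. The 3 ACACA starts held 0, 1 and 2. Of 35116 promoters of the same length, 32.0% held that box. The GC box bound by Sp1 (GGGCGG) was present in at least 1 window of all 7 genes, but not at the third start of ACACA or the first start of FADS2. It was present in 42.6% of all promoters, where each window counted alone, so genes with several starts had more windows to match. The E-box CACGTG (6.34% of all promoters), TCACNCCAC, a form of the sterol response element (0.883%), and TCANNTGA (6.12%) were absent from the windows of the 7 genes, with both strands searched and matches of different motifs free to overlap. A match is a description of the letters in these windows, and no match says nothing about a factor elsewhere.

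The genes around the pathway were described in the same way, from 10 lists of lipid genes. Among 16 of 18 regulators of SREBP and lipogenesis that passed the filter, 10 were higher and 6 lower with si-RBCK1 #1 (median log2 ratio 0.24), and 11 and 5 with si-RBCK1 #2 (0.21). Of all genes tested, 51.5% were higher by any amount with si-RBCK1 #1 and 53.5% with si-RBCK1 #2. INSIG1, the membrane protein that holds the SREBP complex in the endoplasmic reticulum and is itself an SREBP target, was at 8.39 RPKM in si-Control, 37.5 in si-RBCK1 #1 and 12.2 in si-RBCK1 #2. Its log2 ratios of 2.03 and 0.49 made it the gene of this list on which the siRNAs lay farthest apart. MBTPS2, a protease that cuts SREBP, was lower in both (18.9, 10.9 and 11.3 RPKM), as was MID1IP1, which activates acetyl-CoA carboxylase (19.8, 11.2 and 15.1 RPKM). The transcription factors MLX (0.77 and 0.60), USF1 (0.65 and 0.63), MLXIP (0.51 and 0.59) and the oxysterol receptor NR1H2 (0.45 and 0.62) had positive log2 ratios. USF2 was the most abundant of the list in si-Control, at 33.8 RPKM.

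All 19 genes that supply acetyl-CoA, citrate and NADPH passed the filter, with medians of -0.05 and 0.13, so this list lay near the median of all genes. ACO1, the cytosolic aconitase and iron regulatory protein, was the most abundant in si-Control (103, 69.5 and 73.4 RPKM). PGD, an enzyme of the pentose phosphate pathway that yields NADPH, was at 70.2, 109 and 99 RPKM. SLC25A1, the mitochondrial citrate carrier, was at 24.1, 27.3 and 38.3 RPKM. ACSS2, which makes acetyl-CoA from acetate, differed in direction between the siRNAs, at 8.25, 4.69 and 9.29 RPKM.

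Of 11 genes of malonyl-CoA metabolism and mitochondrial fatty acid synthesis 10 passed, with 5 higher and 5 lower with either siRNA (medians -0.01 and -0.04). Among all genes tested 51.5% and 53.5% were higher. MCAT, the mitochondrial malonyl transferase, was at 3.95, 7.08 and 7.51 RPKM. AASDHPPT, which adds the phosphopantetheine arm to carrier proteins such as that of FASN, was at 26.9, 16 and 19.3 RPKM. OLAH, a thioesterase that releases shorter chains from FASN, was at 2.84, 1.23 and 0.855 RPKM. HSD17B8 had log2 ratios of -0.89 and -0.49. The smallest whole reads that fit its levels were 13, 4 and 7, for a gene length of 199 bases. With these reads the counting interval with si-RBCK1 #2 held no change, but a longer gene would have a multiple of them and a narrower interval. NDUFAB1, the acyl carrier protein of mitochondria, was the most abundant at 77.6 RPKM in si-Control.

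Among the other elongation genes 11 of 13 passed, 7 higher and 4 lower with either siRNA (medians 0.24 and 0.12), where 51.5% and 53.5% of all genes tested were higher. ELOVL7, an elongase of long saturated chains, was lower in both libraries, like ELOVL6, at 11.3 RPKM in si-Control, 4.23 in si-RBCK1 #1 and 5.36 in si-RBCK1 #2 (-1.23 and -0.95). HSD17B12, the ketoreductase of the elongation cycle and the most abundant of the list in si-Control, was at 60.8, 46.7 and 42.5 RPKM. HACD2 and TECR, which carry out the next steps of the cycle, were higher, with log2 ratios of 0.70 and 0.55 for HACD2 and 0.62 and 0.81 for TECR. The list was thus mixed, and the elongases themselves did not share a direction.

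Of 11 other desaturases and their electron donors 9 passed, and their medians were -0.04 and 0.03. FADS3 was the most abundant in si-Control (values above), and DEGS1, the desaturase of ceramide synthesis, was at 53.9, 106 and 78.4 RPKM. Of 18 acyl-CoA synthetases and fatty acid uptake genes 9 passed (medians 0.06 and 0.13). ACSL4, a synthetase that prefers polyunsaturated chains, was at 121, 75.1 and 79.2 RPKM, whereas the acyl-CoA binding protein DBI was at 29.9, 61.2 and 48.1 RPKM. FABP5 (111, 185 and 161 RPKM) and SLC27A4 (6.30, 13.3 and 11.5 RPKM) were also higher in both.

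Triglyceride and lipid droplet genes, where newly made fatty acids are stored, had medians of -0.35 and -0.22 with 20 of 29 genes passing the filter, 8 higher and 12 lower with either siRNA. Of all genes tested 51.5% and 53.5% were higher. Without the filter the medians were -0.048 and 0. With the filter these were the lowest medians of the 10 lists, and without it those of fatty acid oxidation were lower (-0.084 and -0.045). PLIN2, the coat protein of lipid droplets, was at 319 RPKM in si-Control, 111 in si-RBCK1 #1 and 147 in si-RBCK1 #2 (-1.51 and -1.11). The lipases MGLL (56.6, 21.1 and 41.0 RPKM) and PNPLA2 (70.6, 33.5 and 52.1 RPKM) were lower in both, more so with si-RBCK1 #1. DGAT2, which makes triglyceride, was at 4.15, 1.82 and 2.25 RPKM. PLIN3 (0.79 and 0.84), LPIN3 (0.66 and 0.82) and GPAT4 (0.77 and 0.45) had positive log2 ratios. AGPAT5, an acyltransferase, had negative ones (-0.33 and -0.94).

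Fatty acid oxidation (19 of 26 genes, medians -0.02 and -0.04) and the AMPK list (7 of 8 genes, medians -0.07 and 0.01) lay near the medians of all genes. ECHS1 was the most abundant oxidation gene at 110, 104 and 106 RPKM. ACOX3 (0.83 and 0.68) and ECI2 (0.68 and 0.47) had positive log2 ratios and ACADS negative ones (-0.73 and -0.16). CPT1A, the entry step of oxidation that malonyl-CoA inhibits, was below 1 RPKM in all 3 libraries. Of the AMPK subunits PRKAG1 was the most abundant, at 23.5 RPKM in si-Control, and PRKAG2 (-0.78 and -0.22) and PRKAB2 (0.62 and 0.06) passed 1.5-fold with si-RBCK1 #1.

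Cholesterol synthesis and uptake, the pathway mainly under SREBF2, had the highest median of the 10 lists. Of 23 genes 22 passed, 21 of them higher with si-RBCK1 #1 (median 0.88) and 20 with si-RBCK1 #2 (0.61), where 51.5% and 53.5% of all genes tested were higher. At least 2-fold higher were 9 and 3 genes of the list, against 2.91% and 2.5% of all genes tested. HMGCS1, which makes HMG-CoA, had log2 ratios of 1.11 and 0.54, and the squalene epoxidase SQLE 1.42 and 0.62. The enzymes IDI1 (1.13 and 0.73), DHCR7 (1.40 and 1.19) and EBP (1.04 and 0.94) also had positive log2 ratios. TM7SF2, a sterol reductase, was the gene that was lower with si-RBCK1 #1 by at least 2-fold (2.96, 0.834 and 2.03 RPKM). Of the 8 genes, SREBF1, ACACA, ELOVL6 and FADS1 lay below the median of this list with both siRNAs. FADS2 lay below it with si-RBCK1 #1 (0.77) and above it with si-RBCK1 #2 (0.84).

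**Figure D4:**
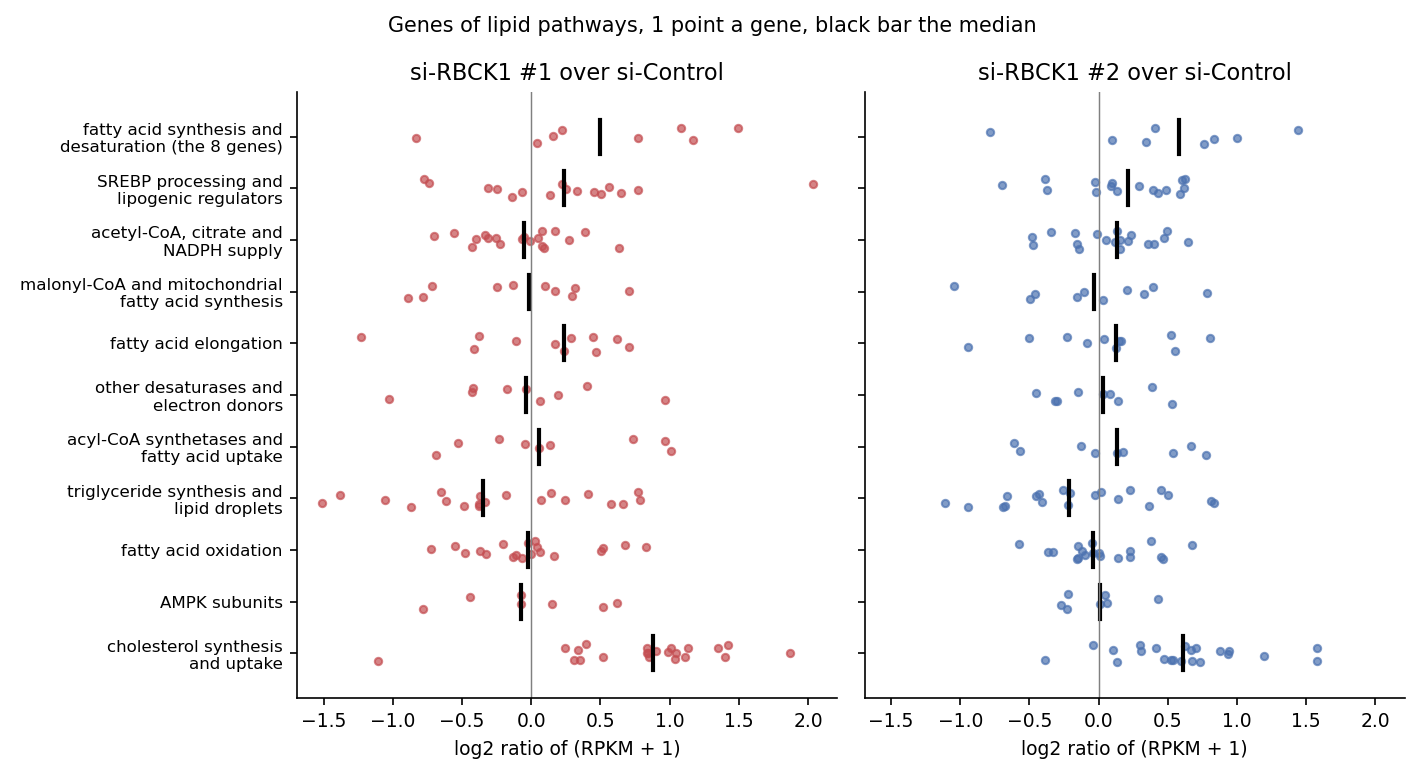
Log2 ratio of (RPKM + 1) to si-Control for each gene that passed the filter in the 8-gene set and in 10 lists of lipid genes, with 1 point per gene (vertical position within a row is arbitrary) and a black bar at the median. The medians of the 8 genes, 0.49 and 0.58, lie between those of the cholesterol list (0.88 and 0.61) and those of the other lists. The 8 genes themselves ranged from ELOVL6 (-0.83 and -0.78) to FASN (1.49 and 1.44).

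The protein-coding genes whose pair of log2 ratios lay nearest to the pair of medians of the 8 genes, over 3 libraries, were DGKZ (distance 0.0057), MAVS (0.0065) and APOL2 (0.0076). Of 10767 protein-coding genes outside the set, 200 lay within a distance of 0.1, so that pair of values is not particular to these 3 genes. The 8 genes ranged from -0.83 and -0.78 (ELOVL6) to 1.49 and 1.44 (FASN). Nearness to their medians is therefore not likeness to any single gene of the set.

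**Figure D5:**
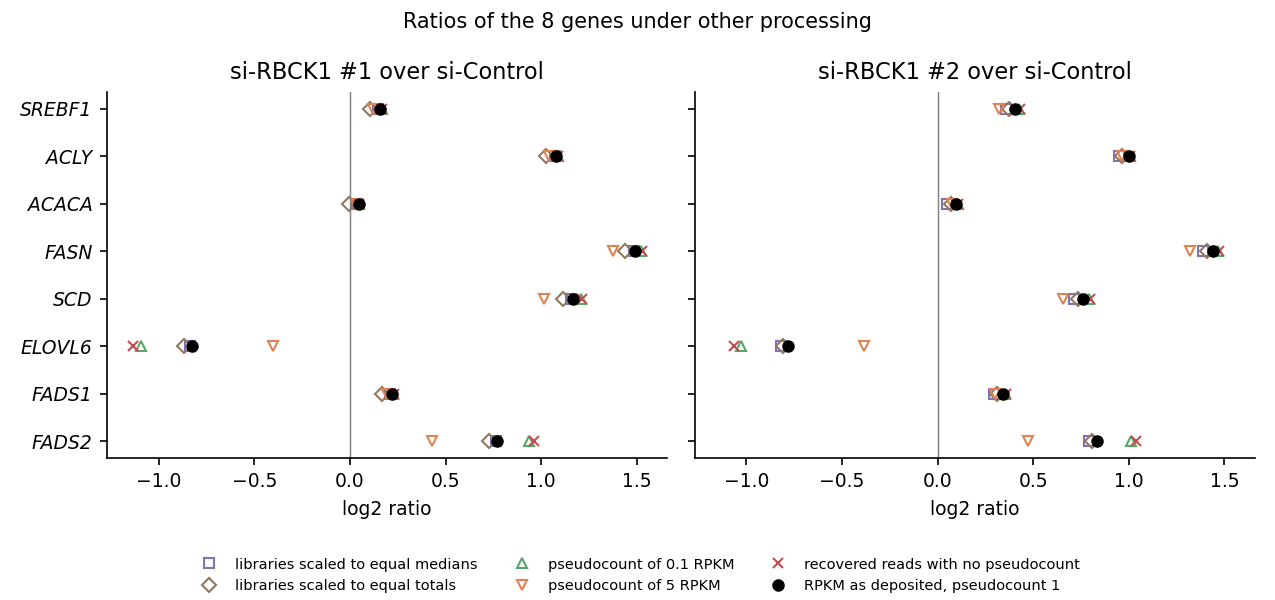
Log2 ratio of each of the 8 genes to si-Control under 6 ways of processing, with RPKM as deposited and a pseudocount of 1 in black. A pseudocount of 5 RPKM drew ELOVL6 and FADS2, the genes of lowest level, toward 0, and ACACA lay close to 0 throughout.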

How the data were processed

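RNA from Caki-1 cells was sequenced in 3 libraries, 1 per condition. The records describe removal of ribosomal RNA, a directional kit and paired-end sequencing on a HiSeq instrument, while the methods name the platform of the Beijing Genomic Institute. The authors deposited RPKM values per gene and library, and the submitters' processing notes name FastQC, Trimmomatic, TopHat2, HTSeq and hg19. The annotation and the strand setting of the counting are not given in the sources used here. Columns with the authors' own comparison (a control and a treated value, log2 fold change, p and q) were not used. The table holds 1 library entry that is not a number, and that gene was left out.

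Log2 ratios used a pseudocount of 1 RPKM and genes that averaged 1 RPKM or more, with limits of 2-fold and 1.5-fold. Such ratios understate the change of low genes. Library totals were found from the steps between RPKM values of genes up to 200 nt. For all 8 genes, and for 151 of 151 genes searched, the smallest whole numbers of reads that fit the listed values were then found, with gene lengths up to 50000 nt. If a gene had a multiple of these reads, its interval would be narrower. Intervals of ratios are exact Clopper-Pearson intervals at 95%. The genes and the lists were chosen with earlier results of these data known. Named are the 8 genes, RBCK1, overlapping or neighbouring genes and, of each list, the gene with the highest si-Control level and up to 8 genes at least 1.5-fold changed with either siRNA. SCD5, ACACB and CPT1A were added after their values were seen, and some genes that this rule names are not reported here. Likeness was the Euclidean distance between pairs of log2 ratios. Alternatives were other scaling, a pseudocount of 0.1 or 5 RPKM, a filter of 5 RPKM or none, other fold limits, protein-coding genes alone, means and recovered reads. The steps were tested on simulated data. The scripts ran under Python 3.11.15 with scipy 1.17.1, pandas 2.3.3, matplotlib 3.10.9 and numpy 2.4.6.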

Additional observations from a re-analysis of the deposited data

Results flagged for a closer look

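The siRNAs gave opposite directions for ACSS2, the acetyl-CoA synthetase of the acetyl-CoA list, whose log2 ratio was -0.70 for si-RBCK1 #1 but 0.15 for si-RBCK1 #2. The same held for G0S2, an inhibitor of the lipase PNPLA2, with 0.25 and -0.69. With 1 library per siRNA, these differences between the siRNAs were not tested.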

How the results depend on the processing

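No paired analysis was possible because there was 1 library of each condition, and for the same reason no library could be left out. Of 54 member ratios recomputed for each comparison, none changed sign beyond counting error, and 46 (si-RBCK1 #1), 43 (si-RBCK1 #2) and 52 (between the siRNAs) stayed within counting error. These numbers include the settings with another filter, which only drop genes and could not change the ratio of a gene that was kept. With a pseudocount of 5 RPKM the median of the 8 genes was 0.31 and 0.40 and that of the cholesterol list 0.70 and 0.47. With a mean of at least 5 RPKM the median of the 8 genes was 0.65 with si-RBCK1 #1, since ELOVL6 and FADS2 drop out. For si-RBCK1 #2 the number of the 8 genes past the limit was 3 with a pseudocount of 0.1 and 4 at 1.5-fold. Of 70 list medians recomputed for each siRNA, 64 (si-RBCK1 #1) and 65 (si-RBCK1 #2) stayed within counting error. With si-RBCK1 #2, 2 did not keep the sign of a main value that lay beyond counting error, and with si-RBCK1 #1 all did. Of the list medians, acyl-CoA synthetases gave 0.00068 with equal totals, 0.16 as a mean and 0.14 with the filter at 5 RPKM for si-RBCK1 #1, and 0 without a filter for si-RBCK1 #2. With the filter at 5 RPKM elongation gave 0.37 (si-RBCK1 #1) and malonyl-CoA genes 0.27 (si-RBCK1 #2). That malonyl-CoA median changed sign, from -0.04 in the main setting. Without a filter the regulators gave 0.11 (si-RBCK1 #2) and triglyceride genes -0.048 and 0. The numbers of all genes at least 2-fold higher and lower, 361 and 405 with si-RBCK1 #1 and 310 and 281 with si-RBCK1 #2, became 616, 730, 563 and 522 with a pseudocount of 0.1, and 114, 105, 101 and 97 with a pseudocount of 5. The filter at 5 RPKM gave 237 and 218 with si-RBCK1 #1 and 174 lower with si-RBCK1 #2, and the 1.5-fold limit gave 1499, 1435, 1400 and 1156. Apart from settings that test fewer or more genes or another limit, the cause was not tested. Among the 8 genes, ELOVL6 and FADS2 had the fewest recovered reads, and those of ELOVL6 may be a fraction of its true reads.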
